A study of Mus musculus with 160 samples.

Results

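Igf1 divided the old marrow stromal cells into 28 cells in which its RNA was listed and 30 in which it was not. The cells compared are the 58 of 78 old cells with 600 or more named genes at 1 FPKM (a level scaled for transcript length and for the mapped fragments of the cell), out of 160 cells in the series. The 2 sides were chosen by the FPKM of Igf1 itself: a cell with Igf1 at 1 FPKM or more is called a cell with Igf1, and a cell under 1 FPKM a cell without Igf1. C57BL/6J bone marrow was the source, and the sorted cells were negative for CD45, Ter119 and CD31 (marks of blood, red and endothelial cells) and positive for the leptin receptor and CD140a, and each was captured and sequenced on its own. The labels give 24 months for the old mice and 9 weeks for the young mice (the protocol text gives slightly different ages), and the young cells enter only as a second set of cells (67 of 82 kept by the same gene minimum). No genotype or treatment is given for either age. Since the labels tie no cell to an animal, the old cells count as 1 sample, no test was made, and every difference is a description of these cells. Intervals are exact (Clopper-Pearson) 95% intervals over cells that cover counting error only.

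IGF-1 is a secreted growth factor related to insulin. The liver releases it into the blood under growth hormone, and bone and marrow stroma also make it locally. It acts through the receptor Igf1r and the insulin receptor substrates on the PI3K-AKT-mTOR and MAP kinase pathways. Binding proteins carry it, and the protease PAPP-A frees it from IGFBP4. In marrow stroma, growth hormone signals through Ghr, Jak2 and Stat5, which raise Igf1 and the feedback inhibitor Socs2.

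Of the 58 old cells 28 listed Igf1 (48.3%, interval 34.95 to 61.8). In these it ran from 2.06 FPKM through a median of 18.9 to 199.7 FPKM. Of the 30 cells without it, 16 were at exactly 0 and 14 lay between 0 and 1. The cells nearest the threshold were at 0.577 and 0.704 FPKM below it and at 2.06 and 2.33 above it, so no cell lay between 0.704 and 2.06. These levels chose the cells and are given as a description. An exact 0 can be a failed estimate: Gapdh, a glycolytic enzyme that nearly all cells use, was at exactly 0 in 9 of 28 cells with Igf1 and in 14 of 30 without, whereas Actb and B2m were at 0 in none. A cell without Igf1 is therefore one in which it was not listed, not one shown to lack it.

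The cells with Igf1 also listed more genes. They had a median of 1369.5 named genes at 1 FPKM (quartiles 1214 and 1520, range 622 to 2779), and the cells without had 1204 (849 and 1362.5, range 637 to 1877). The ranges overlapped over most of their length. To hold the gene number alike, the 58 cells were parted at their median of 1312 genes into 29 gene-poor and 29 gene-rich cells, and the difference was also taken within each set. Igf1 was listed in 9 of 29 gene-poor cells (31.03%, interval 15.3 to 50.8) and in 19 of 29 gene-rich cells (65.5%, 45.7 to 82.1). Among gene-poor cells the medians were 1072 genes with and 1054 without Igf1, and among gene-rich cells 1489 and 1407.5, so the sides were closer in gene number within each set. Other measures were not matched. The median summed FPKM of named genes was 110167 with (9 cells) and 69565 without Igf1 (20 cells) in gene-poor cells. In gene-rich cells it was 72065 and 67206. Genes above 0 FPKM had medians of 1749 with and 1924 without Igf1 in gene-poor cells, and 2614 and 2448 in gene-rich cells. The mean of the differences in gene-poor and gene-rich cells is called the matched difference.

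**Figure D1:**
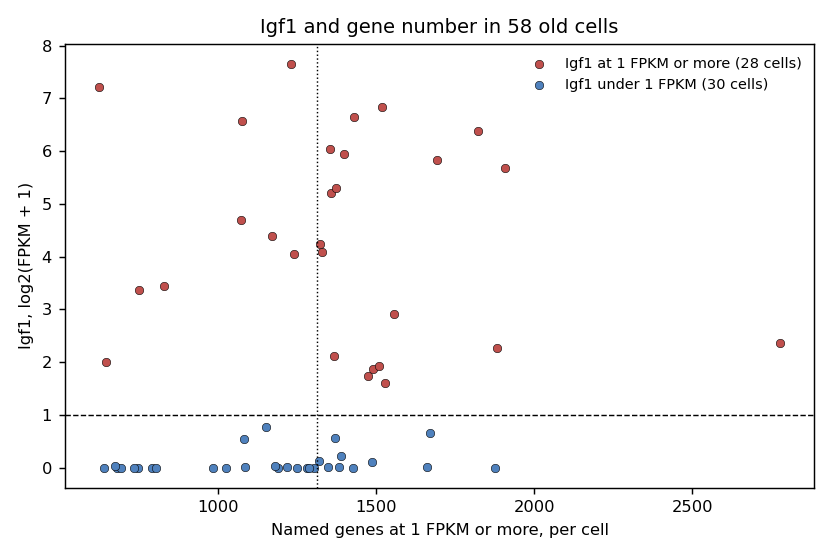
Igf1 as log2(FPKM + 1) (vertical axis) against the number of named genes at 1 FPKM or more (horizontal axis) in each of the 58 old cells. The dashed line marks 1 FPKM and the dotted line the median of 1312 genes. Of the 28 cells with Igf1, 19 lie to the right of the dotted line, and of the 30 cells without, 10 do.

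Both sides carried the RNA of the sorted stroma. Lepr, the leptin receptor, was listed in 28 of 28 cells with Igf1 and in 27 of 30 without, with medians of 77.1 and 43.97 FPKM. Cxcl12, a chemokine that holds stem cells in the marrow, was listed in 28 and 29 cells, and Pdgfra (CD140a), the other gated receptor, in 14 and 14. The blood marker Ptprc and the endothelial marker Pecam1 reached 1 FPKM in 0 cells, which by the limit of 3 counts allows up to 10.7% of 28 and 10% of 30 cells to list them. This limits cells that list the gene, not cells that express it. No cell of either side held 3 or more of the hematopoietic (16 in the table), erythroid (4), endothelial (12), megakaryocyte (6), pericyte and smooth muscle (11), Schwann cell (8) or chondrocyte (11) markers, and the median summed level of each list was under 2 FPKM on both sides. At 0 of the 58 cells were 13 of the hematopoietic markers, 3 of the erythroid, 11 of the endothelial, 6 of the megakaryocyte, 7 of the pericyte, 5 of the Schwann cell and 7 of the chondrocyte markers. The hematopoietic markers reached 761 FPKM in 1 cell with Igf1 and 124 FPKM in 1 without. S100b was the one member of these lists listed in 20% of the cells, in 13 with and 11 without Igf1. At least 3 fibroblast genes were listed in 57.1% of cells with (interval 37.2 to 75.5) and 63.3% without (43.9 to 80.1). The adipogenic genes reached that number in 26 of 28 and 29 of 30 cells, and the osteogenic genes in 28 and 30. Xist, the RNA of the inactive X chromosome, was in 25 of 28 and 24 of 30, and the 4 Y-linked genes in 0.

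Most genes leaned toward the cells with Igf1, and few were higher without it. For each gene the log2 difference is the mean of log2(FPKM + 1) over the cells with Igf1 minus that over the cells without. Among the 1823 genes listed in 20% or more of the 58 cells, Igf1 left out, 279 were higher by 1 or more with Igf1 (15.3%) and 22 lower by 1 or more (1.21%). The median log2 difference of all 1823 genes was 0.29 (quartiles -0.06 and 0.75), and 71.4% lay above 0. With gene number matched the median was 0.16, 198 genes (10.9%) were higher and 66 lower (3.62%). Of the 279 higher genes 177 were still higher by 1 in the matched difference, and of the 22 lower genes 21 were still lower by 1. With gene number as a linear covariate 162 genes (8.89%) were higher and 55 lower. Centring the differences on their median left 126 higher (6.91%) and 55 lower genes (3.02%), and the share of higher genes among those past 1 went from 92.7% to 69.6%. With all 78 old cells in, 254 of 1411 genes tested were higher and 1 lower, so the count of lower genes rests on the gene minimum. A pseudocount of 10 in place of 1 left 45 higher and 0 lower.

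**Figure D2:**
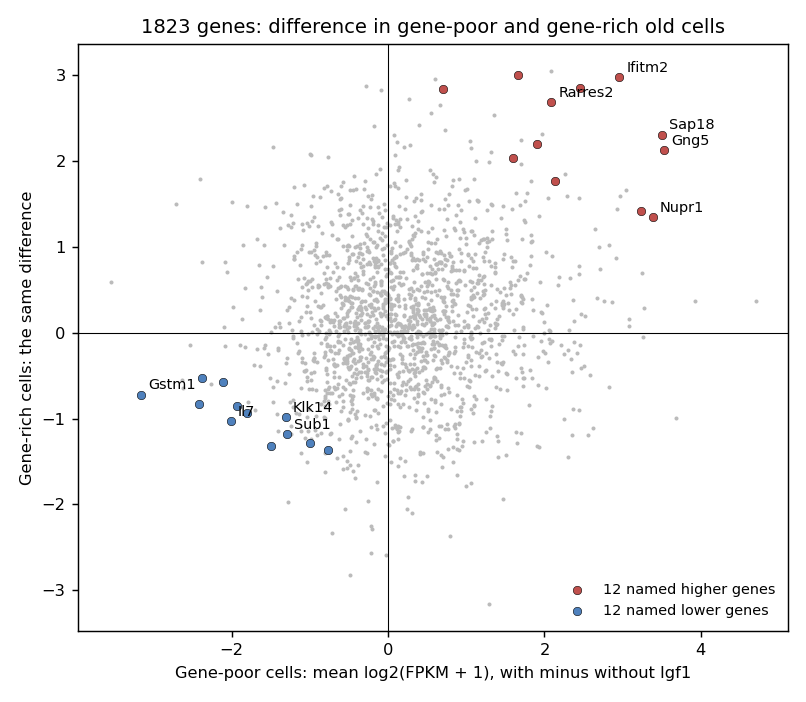
Difference of mean log2(FPKM + 1), cells with minus cells without Igf1, in the 29 gene-poor (horizontal axis) and the 29 gene-rich old cells (vertical axis), 1 grey point for each of 1823 genes. The named genes lie in the upper right and lower left because their rule asked for 1 sign in both sets, and 71 genes were higher and 13 lower by 1 or more in both.

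The genes named here are the 12 highest and 12 lowest log2 differences among the 815 genes whose log2 difference, difference in share and differences in gene-poor and gene-rich cells had 1 sign, leaving out predicted, ribosomal protein and small RNA genes. The sign in the 2 sets was thus fixed by the choice. In each sentence the FPKM are the lowest, the median and the highest over the cells of a side.

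Gng5, a gamma subunit of heterotrimeric G proteins, was at 0, 79.1 and 679.7 FPKM with Igf1 and at 0, 2.89 and 1276 FPKM without. It was listed in 27 of 28 cells (96.4%, interval 81.7 to 99.9) against 16 of 30 (53.3%, 34.3 to 71.7), and its mean log2 level was 6.29 ± 2.16 (SD over 28 cells) against 3.21 ± 3.37 (30 cells), a log2 difference of 3.08. The sides overlapped in level, and the contrast lay in the cells at or near 0: 1 of 28 with and 14 of 30 without Igf1 were under 1 FPKM. This was the highest difference of the named genes, and its matched difference was 2.83.

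Rarres2, which encodes the secreted chemoattractant and adipokine chemerin, was at 0, 179.6 and 1108 FPKM with Igf1 and at 0, 0.988 and 932 FPKM without. It was listed in 23 of 28 cells (82.1%, interval 63.1 to 93.9) against 15 of 30 (50%, 31.3 to 68.7), with a log2 difference of 2.82 and a matched difference of 2.39. Where it was listed its levels overlapped between the sides.

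Nupr1, a small stress-induced chromatin protein, was at 33.5, 742 and 2884 FPKM with Igf1 and at 0.137, 237 and 2263 FPKM without. It was listed in 28 of 28 and 27 of 30 cells, so its log2 difference of 2.47 (mean 9.22 ± 1.56 against 6.75 ± 3.23, SD over cells) was one of level rather than of listing. Ifitm2, an interferon-induced membrane protein, was at 0.328, 219 and 15193 FPKM with and 0, 29.7 and 823 FPKM without, with a log2 difference of 2.78. In Ifitm2 1 cell held 55.6% of the FPKM summed over the 58 cells.

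The other higher genes were listed in a majority of cells with Igf1 and a minority without. Atp5h, a subunit of the mitochondrial ATP synthase, was in 21 of 28 and 7 of 30 cells (log2 difference 2.98). Sap18, a subunit of a histone deacetylase complex, was in 19 and 3 (2.88). Ndufv3, of respiratory complex I, was in 17 and 5 (2.56), and Mrpl33, of the mitochondrial ribosome, in 18 and 8 (2.55). Genes of the endoplasmic reticulum followed: Sec11a, the catalytic subunit of signal peptidase, in 15 and 5 (2.64), Sec61g, of the protein translocation channel, in 23 and 11 (2.40), and Ier3ip1 in 15 and 2 (2.47). Sat1, which acetylates spermidine and spermine, was in 15 and 6 (2.29). For all 12 higher genes the matched difference stayed above 1, from 1.77 for Sat1 to 2.97 for Ifitm2.

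The lower genes differed by less. Klk14, a secreted serine protease, was at 0, 0.314 and 5732 FPKM with Igf1 and at 0, 2.59 and 1578 FPKM without. It was listed in 11 of 28 cells (39.3%, interval 21.5 to 59.4) against 17 of 30 (56.7%, 37.4 to 74.5), with a log2 difference of -1.64, the lowest of the 24, and 1 cell held 61.05% of its FPKM. The intervals of its 2 shares overlapped.

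Il7, the cytokine that marrow stroma supplies to developing B cells, was at 0, 0.0026 and 153 FPKM with Igf1 and at 0, 1.18 and 755 FPKM without. It was listed in 9 of 28 cells (32.1%, interval 15.9 to 52.4) against 17 of 30 (56.7%, 37.4 to 74.5), with a log2 difference of -1.28 and a matched difference of -1.52. Most cells with Igf1 did not list Il7, though the highest of them reached the range of the other side.

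Sub1, a transcription coactivator that binds single-stranded DNA, was in 4 of 28 cells (14.3%, interval 4.03 to 32.7) against 15 of 30 (50%, 31.3 to 68.7), with a log2 difference of -1.28. Psmb9, a catalytic subunit of the immunoproteasome, was in 3 of 28 and 10 of 30 (-1.38), and Sp100, a nuclear body protein, in 8 and 15 (-1.10). Sorbs2, an adaptor of the actin cytoskeleton, was in 13 and 19 (-1.34), and Gstm1, a glutathione transferase, in 12 and 17 (-1.13). Wdr86 was in 4 and 12 (-1.18), the small GTPase gene Rhob in 5 and 12 (-1.12), the transcription elongation factor gene Tcea1 in 4 and 11 (-1.10), the pseudogene Pisd-ps1 in 10 and 17 (-1.17), and the RNA helicase gene Ddx17 in 18 and 20 (-1.06). In Pisd-ps1 1 cell without Igf1 held 99.3% of the FPKM. The matched differences of the 12 ran from -1.94 for Gstm1 to -1.07 for Rhob. With all 78 old cells in, Ddx17 turned to 0.11, so its direction rests on the gene minimum.

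**Figure D3:**
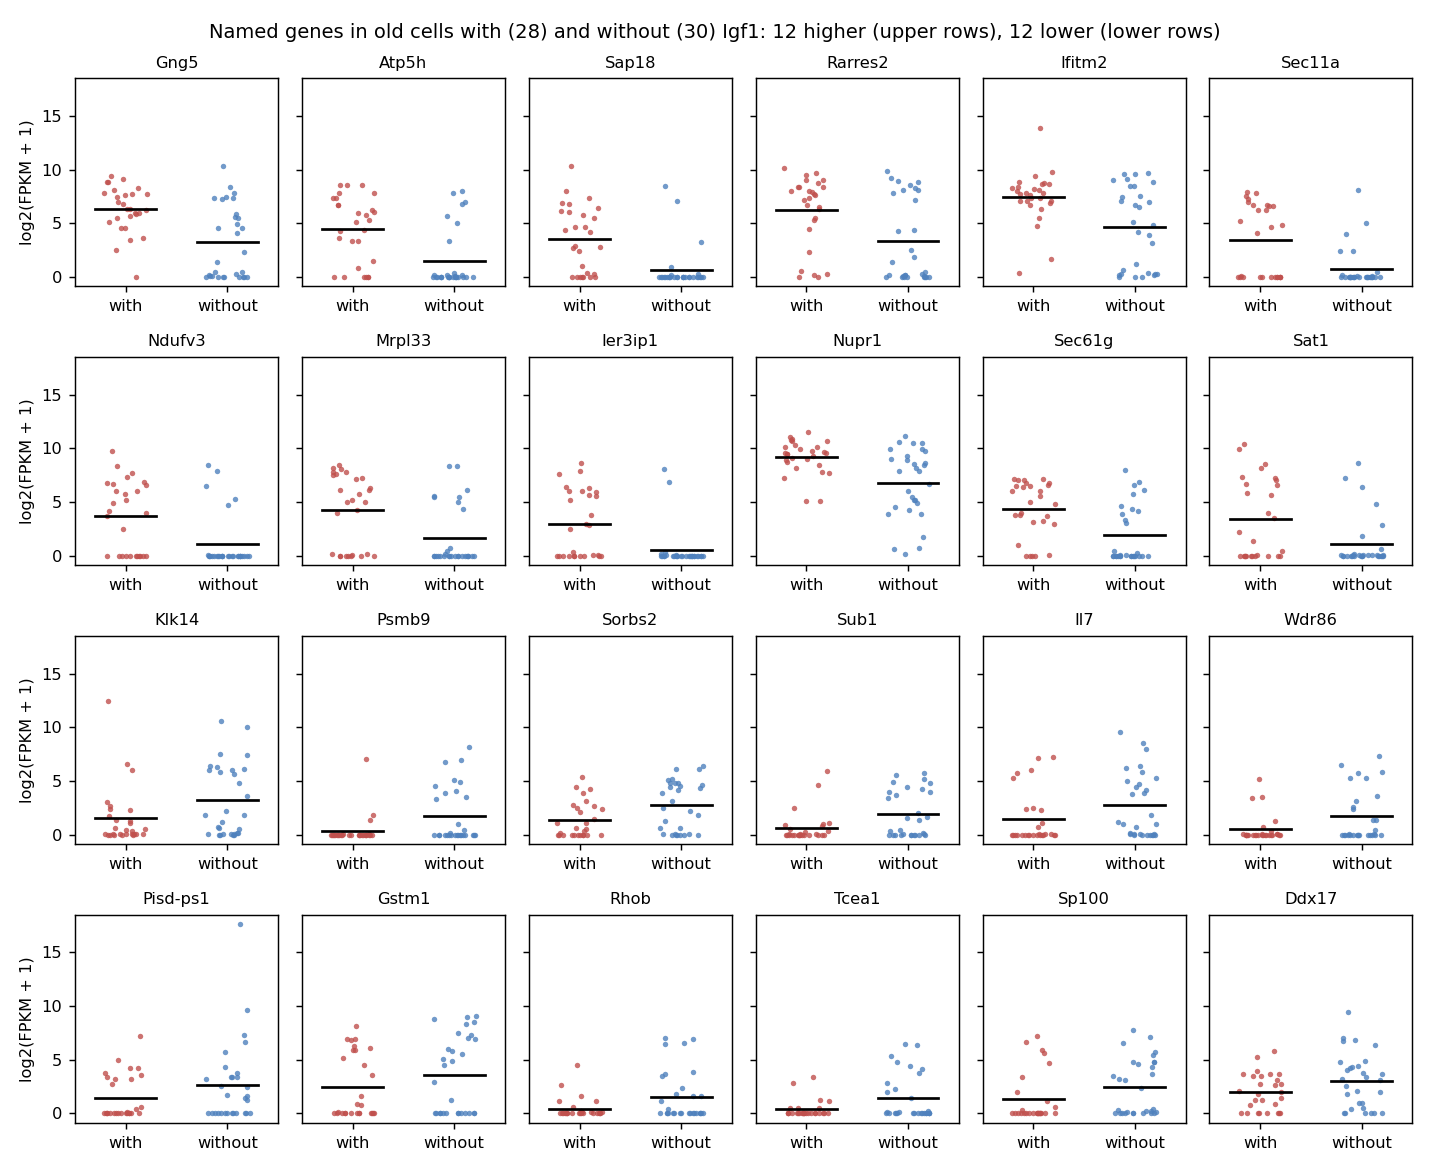
log2(FPKM + 1) of the 24 named genes (vertical axis) in each old cell with (28, red) and without Igf1 (30, blue), with a black line at the mean. The 12 higher genes fill the upper rows: Gng5 has 1 cell under 1 FPKM with and 14 without Igf1. The 12 lower genes fill the lower rows: Sub1 is at 1 FPKM or more in 4 cells with and 15 without Igf1, and Ddx17 in 18 and 20.

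When the cells with Igf1 were parted at their own median into 14 lower (median 3.99 FPKM of Igf1) and 14 higher cells (62.6 FPKM), the named genes could be followed over 3 tiers. The step from the cells without Igf1 was fixed by the choice of these genes, so the means are given as a description. Rarres2 had mean log2 levels of 3.36 without Igf1, 5.47 at lower and 6.91 at higher Igf1, and Nupr1 had 6.75, 8.87 and 9.57. Mrpl33 had 1.67, 3.35 and 5.08, and Ndufv3 1.10, 2.71 and 4.60. Gng5 had 3.21, 6.32 and 6.25, so its lower and higher Igf1 cells did not differ beyond the spread between cells, and Ier3ip1 was highest in the lower Igf1 cells (0.52, 3.44 and 2.55). Of the lower genes, Klk14 had means of 3.19, 1.94 and 1.16, whereas Gstm1 had 3.62, 1.56 and 3.42. The means rose at each step in 8 of the 12 higher genes and fell at each step in 6 of the 12 lower genes. The same count was not made over all genes. These counts therefore show no graded change with Igf1 and do not set the named genes apart. The tiers had medians of 1204, 1420.5 and 1364.5 genes.

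Few of the other genes of the IGF axis were past 1, where 15.3% of all genes were higher and 1.21% lower. Few were tested in each list, so these counts do not set a list apart from all genes. Of the 7 ligands, receptors and substrates besides Igf1, 2 were listed in 20% of the cells, and 0 of these were past 1 in either direction. Igf1r, the receptor, was listed in 6 of 28 cells with and 6 of 30 without Igf1 (log2 difference -0.19). Igf2r, which clears IGF-2, was in 12 and 9 (0.41). Igf2 was in 0 cells of either side, Insr in 0 and 1, Irs1 in 4 and 7, and Irs2 in 5 and 1.

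Of 13 binding proteins and processing genes 5 were tested and 0 were past 1. Igfbp5 was the most abundant and was listed in 28 of 28 and 30 of 30 cells. It was at 128, 406 and 1871 FPKM with Igf1 and at 30.6, 493 and 195362 FPKM without, the last in 1 cell, with a log2 difference of -0.34. Igfbp4 was at 0, 64.05 and 177 FPKM with and 0.0175, 72.6 and 549 FPKM without. Its log2 difference was -0.67 and its matched difference -1.60 (-2.64 in gene-poor and -0.55 in gene-rich cells), past 1 only once gene number was matched. Pappa, the protease that cuts IGFBP4, was in 17 and 17 cells (-0.11, with -1.65 in gene-poor and 0.79 in gene-rich cells). Igfbp7 was in 22 and 21 (0.61, with 2.37 and -0.89), so both changed sign between the sets. Htra1, another secreted protease, was in 11 and 8 (0.59). Igfbp3 was in 3 and 7 cells. Igfbp1, Igfbp2, Igfbp6, Igfals, Pappa2 and Stc2 were in 0 or 1 cell.

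Of the 10 growth hormone and STAT5 genes 4 were tested and 1 was past 1, Socs2. It was at 0, 1.53 and 604 FPKM with Igf1 and at 0, 0.0107 and 112 FPKM without. It was listed in 14 of 28 against 9 of 30 cells, with a mean log2 level of 2.50 ± 2.95 against 1.22 ± 2.16 (SD over cells), a log2 difference of 1.28 and a matched difference of 1.64. The spread between cells was larger than the difference. Socs2 was not alone in this: Rarres2 had SDs of 3.29 and 3.88 for a difference of 2.82, and Klk14 2.75 and 3.35 for -1.64. Ghr, the growth hormone receptor, was in 15 of 28 and 18 of 30 cells (0.40, with -1.85 in gene-poor and 1.02 in gene-rich cells), Stat5a in 7 and 10 (-0.66), Socs3 in 9 and 6 (0.47) and Stat5b in 9 and 2.

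The PI3K, AKT, mTOR and FOXO genes were sparsely listed. Of 30, 7 were tested, 0 were past 1 in either direction, and their median log2 difference was -0.05 against 0.29 for all genes. It ran from -0.52 for Pik3r1, the regulatory subunit of PI3K (11 of 28 against 16 of 30 cells), to 0.74 for Rps6kb1, the kinase S6K1 (12 and 8). Gsk3b, a kinase that AKT inhibits, was in 18 and 20 cells. Foxo3 was in 0 cells of either side and Foxo1 in 2 and 3.

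Among 18 blood stem cell niche factors 13 were tested, 3 were higher by 1 and 1 lower, and the median was 0.30 (matched 0.08). Over all genes 15.3% were higher and 1.21% lower. Esm1, a secreted proteoglycan, was in 24 of 28 and 18 of 30 cells (log2 difference 1.55). Jag1, a Notch ligand, was in 17 and 9 (1.30), and Angpt1, the ligand of the receptor Tie2, in 15 and 10 (1.11). Il7 was the lower one. Cxcl12 (0.41) and Kitl, the stem cell factor (-0.02, 25 of 28 and 28 of 30 cells), lay near the median of all genes or below it. Of 21 leptin receptor stroma genes 15 were tested and Lepr alone was past 1 (1.11, with 1.54 in gene-poor and 0.27 in gene-rich cells). The lowest was Ebf1, a transcription factor of these cells (20 of 28 and 25 of 30 cells, -0.92).

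Few genes of the lineage lists were past 1, where 15.3% of all genes were higher. The 6 tested adipogenic genes of 22 had a median of -0.12 and 0 past 1, from -0.47 for Agt to 0.65 for Lpl, lipoprotein lipase. Adipoq, the hormone adiponectin, was in 26 of 28 and 29 of 30 cells (-0.24). Of 27 osteogenic genes 14 were tested and 12 lay above 0 (median 0.39), where 71.4% of all genes did, and 1 was past 1. That was Mgp, an inhibitor of calcification, in 27 and 26 cells with medians of 503.6 and 299 FPKM (1.19). Ibsp, bone sialoprotein, was listed in 26 and 27 (0.70). The 5 tested fibroblast genes of 16 had a median of -0.04 and 0 past 1, with Dcn at -0.04.

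Of the Wnt genes 1 of 7 tested was higher by 1 with Igf1 and of the BMP and TGF-beta genes 1 of 16, which is no larger a share than the 15.3% of all genes. Sfrp4, which binds Wnt proteins, was listed in 22 of 28 cells (median 39.5 FPKM) and 14 of 30 (0.429 FPKM), with a log2 difference of 1.83. Chrdl1, which binds BMP ligands, was in 24 and 17 (1.83, matched 1.35). Each was the only gene past 1 of its list, among 7 tested Wnt genes of 26 (median 0.24) and 16 tested BMP and TGF-beta genes of 40 (0.26). The lowest of the latter was Grem1, another BMP antagonist, in 8 and 12 cells (-0.88), so the antagonists did not all lean one way. Of 28 PDGF, FGF and EGF genes 10 were tested and 2 were past 1, Nrp2 (9 and 3 cells, 1.05) and Fgfr2 (19 and 17, 1.00), with a median of 0.46.

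Ribosomal and mitochondrial genes were the largest lists tested. Of 71 tested cytosolic ribosomal protein genes 31 were higher and 0 lower, where 15.3% of all genes were higher. Above 0 lay 57, as did 71.4% of all genes, and the median log2 difference was 0.92 against 0.29 for all genes. The matched median was 0.43, with 18 higher and 8 lower by 1, where 10.9% and 3.62% of all genes were. Rps4x was the lowest (14 of 28 and 18 of 30 cells, -0.98). Of 49 tested oxidative phosphorylation genes of 55, 20 were higher, 0 lower and 45 above 0, with a median of 0.83 (matched 0.49, 10 higher and 0 lower). After Atp5h came Ndufa12 (12 and 4 cells, 2.07), Atp5c1 (13 and 5, 1.89) and Uqcrb (20 and 17, 1.73). The lowest was Ndufa1 (9 and 12, -0.42). In both lists the median moved toward that of all genes when gene number was matched.

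Of 21 tested iron, selenium and scavenger genes 9 were higher and 1, Gstm1, lower, with a median of 0.83, where 15.3% of all genes were higher. With gene number matched 6 were higher and 1 lower (median 0.49), where 10.9% of all genes were higher. Mt1, a metallothionein, was in 17 of 28 and 12 of 30 cells (2.09, but 0.37 in gene-rich cells). Trf, transferrin, was in 27 and 24 with medians of 182 and 55.2 FPKM (1.80). Ftl1, the ferritin light chain, was in 28 and 25 (1.67), and Fth1, the heavy chain, in 28 and 30 (1.16). Sepp1, the selenium carrier, was in 23 and 16 (1.39), Selk, a selenoprotein of the endoplasmic reticulum, in 21 and 13 (1.77), and Gpx3, a secreted glutathione peroxidase, in 28 and 29 (1.12).

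Of 18 tested lysosome and autophagy genes 6 were higher and 0 lower (median 0.68), where 15.3% of all genes were higher. With gene number matched 4 were higher (median 0.35), where 10.9% of all genes were. Among the 6 were Gabarap, an autophagosome protein (17 and 10 cells, 1.68), and Lamp2, a lysosomal membrane protein (19 and 11, 1.65). Cd63 was at 1.09 in all cells and -0.17 when matched. Of 12 tested immediate early genes 4 were higher (median 0.61), and 3 with gene number matched (median 0.52). Egr1 was in 24 of 28 and 25 of 30 cells with medians of 115 and 20.1 FPKM (1.498), but its difference was 3.08 in gene-poor and 0.17 in gene-rich cells. The interferon list held members on both ends, with a median of 0.06 over 9 tested. Ifitm2, Ifitm3 (28 and 27 cells, 1.79) and Irf1 (12 and 9, 1.11) were higher, where 15.3% of all genes were. Psmb9 and Sp100 were lower, where 1.21% of all genes were. Of 6 tested class I antigen presentation genes 5 lay below 0 (median -0.22), where 71.4% of all genes lay above 0. B2m was the exception (0.71). H2-K1, H2-D1, H2-Q4 and H2-Q7 of this list were not in the data under these names, so the count leaves them out.

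The other lists held 4 or fewer genes past 1, against 15.3% higher over all genes tested. Of 24 tested collagens and matrix genes 4 were higher (median 0.10), of 12 unfolded protein response genes 2 (0.11), with Canx in 26 and 21 cells (1.69), and of 21 cytoskeleton genes 4 (0.35). Of 4 tested heat shock chaperones 2 were higher (median 1.18) and of 4 p53 and arrest genes 2 (median 0.95). Mdm4, an inhibitor of p53, was in 13 of 28 and 4 of 30 cells (1.15). Of 5 glycolysis genes (median 0.48) 1 was higher, Gapdh (1.44). Of 4 retinoic acid genes (median 0.36) 1 was past 1, Rarres2 (2.82). None was past 1 of 8 complement and acute-phase (0.49), 10 matrix protease (0.16), 5 inflammatory (0.21), 6 quiescence (0.30) and 5 nuclear receptor genes (-0.19).

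**Figure D4:**
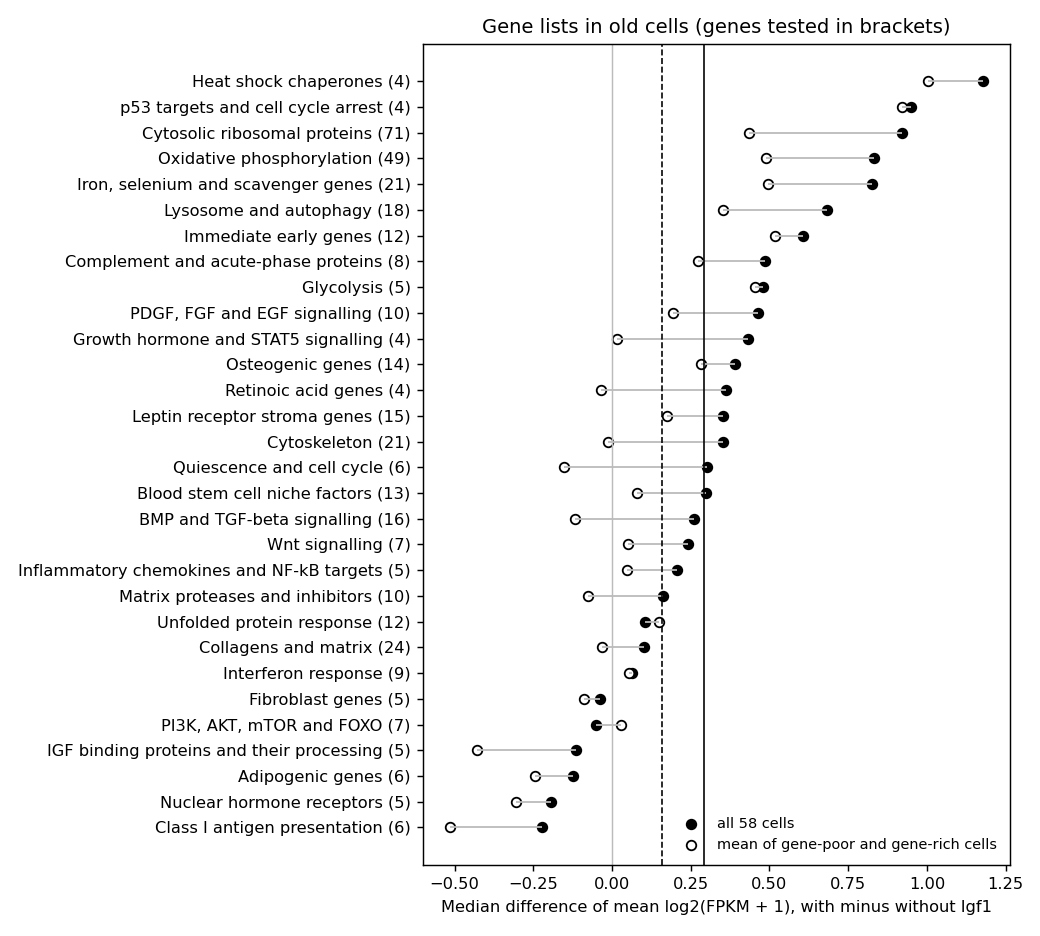
Median difference of mean log2(FPKM + 1), cells with minus without Igf1 (horizontal axis), for each gene list with 4 or more tested genes. Filled points use all 58 cells and open points the mean of gene-poor and gene-rich cells. The solid and dashed lines are the medians of all 1823 genes, 0.29 and 0.16. Ribosomal proteins go from 0.92 to 0.43.

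Genes with short transcripts differed more. The longest annotated transcript of each gene was taken from an annotation of another mouse build, by gene name, for 95.2% of the genes. Its median was 2434 bases for the higher genes (268 of 279 with a length), 3314 for the lower genes (21 of 22) and 3491.5 for all tested. Among the 434 genes of 70 to 2000 bases 26.7% were higher by 1 or more, and among the 434 of 5437 to 23495 bases 7.60%. With gene number matched these shares were 19.1% and 6.91%. In young cells the median log2 difference was 0.30 for the first set and 0.04 for the last. Ifitm2 (655 bases) and Atp5h (857) were short, whereas Sap18 (5125) was not. The part of transcript length in the differences of single genes was not tested.

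Young cells, which took no part in the choice, gave a second set in which to look at the same split. Igf1 was listed in 52 of 67 young cells (77.6%, interval 65.8 to 86.9), with a median of 27.05 FPKM in these, so only 15 young cells were without it. The young cells with Igf1 had a median of 1255 genes and those without 1109. Across the 1823 genes the log2 differences in old and young cells had a Pearson correlation of 0.10 and a Spearman correlation of 0.06, and -0.02 and -0.05 with gene number matched in both ages. These correlations are across genes, which are not independent replicates. Of the 279 genes higher in old cells 179 lay above 0 in young cells (64.2%), as did 58.1% of all 1823, and 39 were higher by 1 or more there (13.98%, against 8.72% of all). Of the 22 lower genes 12 lay below 0 in young cells, as did 41.9% of all 1823. Lower by 1 or more there were 3 of the 22, and 3.57% of all genes. Among the 1715 genes listed in 20% of the young cells themselves, 9.68% were higher by 1 or more with Igf1 and 4.14% lower.

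Rarres2 and Gng5 were the named higher genes past 1 in both ages. Rarres2 was listed in 41 of 52 young cells with Igf1 (78.8%) and 8 of 15 without (53.3%), close to 82.1% and 50% in old cells, with a log2 difference of 2.54 in young and 2.82 in old cells. Gng5 was in 34 of 52 and 7 of 15 young cells (1.74). Of the 12 higher genes 9 lay above 0 in young cells, where 58.1% of all genes did. Ifitm2 (-0.10), Nupr1 (-0.19) and Sat1 (-0.75) lay below 0. Of the 12 lower genes 6 lay below 0, where 41.9% of all genes did. Sub1 (23 of 52 and 11 of 15 cells, -1.51) and Klk14 (13 and 6, -1.01) were past 1. With gene number matched in young cells Sub1 was at -1.89, but Klk14 was at -0.74 and no longer past 1. Il7 was in 19 of 52 and 8 of 15 young cells (-0.82). Psmb9 leaned the other way, in 7 of 52 and 0 of 15 (0.84). Socs2 (-0.95), Ghr (-1.31) and Mgp (-0.84) were lower with Igf1 in young cells. Igfbp4 was at -0.69 in young and -0.67 in old cells, and at -0.86 and -1.60 with gene number matched. Whether the ages differ in any of these was not tested. Xist was listed in 0 young cells, and each of the 4 Y-linked genes in some, most often Uty (12 of 52 and 3 of 15). Old cells listed Xist and none of the 4. By these RNAs the old cells came from females and the young cells included males. Age therefore cannot be told apart from sex or from the other ways in which the 2 sets of animals differed.

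**Figure D5:**
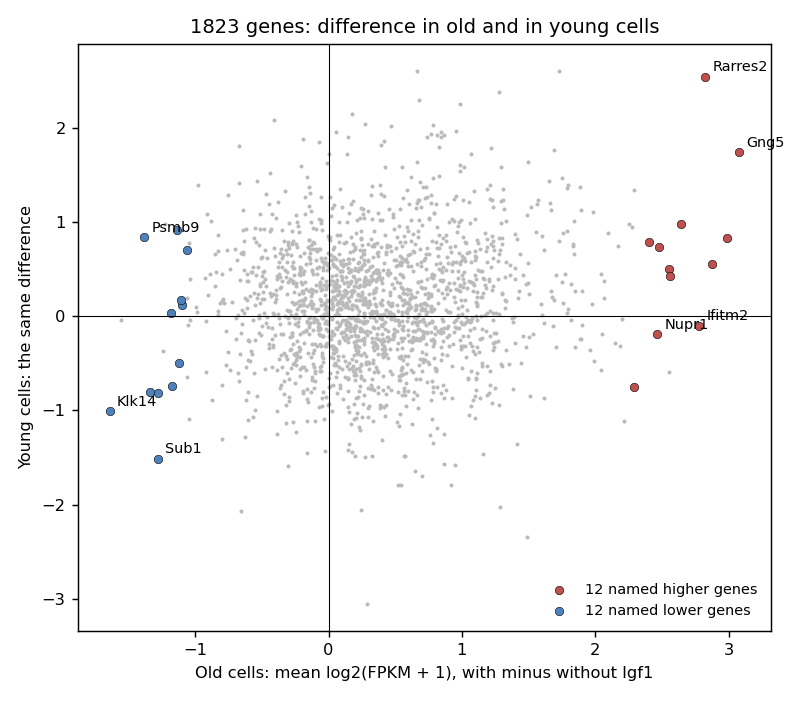
Difference of mean log2(FPKM + 1), cells with minus without Igf1, in old cells (28 and 30 cells, horizontal axis) and young cells (52 and 15, vertical axis), 1 grey point for each of 1823 genes and coloured points for the 24 named genes. Rarres2 (2.82 and 2.54) and Gng5 (3.08 and 1.74) are high in both, while Nupr1 (2.47 and -0.19) and Ifitm2 (2.78 and -0.10) lie near 0 on the young axis.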

How the data were processed

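RNA of single marrow stromal cells was measured after microfluidic capture and SMARTer amplification, per the labels' protocols. The authors deposited 1 table of FPKM values, genes by cells, with no read numbers, so the depth is unknown and no count model was used. Cufflinks 2.1.1 and the build mm9 stand in the submitters' processing notes, without the aligner or filters. Of 31199 rows 7751 without a gene name were dropped, and rows sharing a name were summed, leaving 22866 names, 319 of which join several genes. No 2 cells had identical columns. Doublets were removed by microscopy before deposit, per the labels' protocols, and no caller was run.

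The members, the 39 gene lists and the rule for named genes were chosen with earlier results of these data known. The named genes are the 12 highest and 12 lowest log2 differences among genes listed in 20% of the kept old cells with 1 sign of difference in share, in gene-poor and in gene-rich cells. List members are named by their highest and lowest difference and 2 highest means. IGF axis and gate genes are named as members of their lists. Other genes named from a list, such as Jag1, Angpt1 or Selk, were picked after their values were seen. Values are log2(FPKM + 1), which understates low genes. The formula of the log2 difference was run on old cells drawn again with some genes raised or lowered, and their median changes had the set direction. The unaltered difference of the same drawn cells was subtracted, so that direction was fixed by the arithmetic. It gives no support to any result. The matched difference, the covariate and the rule for named genes were not checked in this way. Analyses used Python 3.11.15, pandas 2.3.3, numpy 2.4.6 and scipy 1.17.1. Some list members are not reported here.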

Additional observations from a re-analysis of the deposited data

Results flagged for a closer look

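Rows with no gene name lie outside the comparisons and held 42.3% of all FPKM in the median old cell with Igf1 and 47.6% in the median one without. They were flagged because they hold signal that the comparisons do not use. Of the 20 old cells left out for listing under 600 genes, 6 had Igf1 at 1 FPKM or more.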

How the results depend on the processing

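The count of 279 higher and 22 lower genes depended on the settings. A pseudocount of 0.1 gave 576 and 69 genes and one of 10 gave 45 and 0. With no gene minimum per cell 1 of 1411 genes tested was lower, and with 1000 genes or more 64 of 2257 were. Splitting at any Igf1 above 0 gave 34 lower genes, and matching on gene number 66. The 445 genes listed in 50% of cells gave 124 and 3, out of fewer genes than the 1823 of the main setting. Their median log2 difference was 0.60 against 0.29. Gene number as a linear covariate gave 162 and 55 and centring on the median of all genes 126 and 55, both chosen after seeing the data. The share of old cells with Igf1 was 72.4% at any FPKM above 0 and 29.3% at 10 FPKM. The correlation between the ages turned from 0.10 to -0.0227 with gene number matched. Ddx17 turned to 0.11 with no gene minimum. Over the 11 settings run for named genes, 11 of the 12 higher genes stayed past 1 (Nupr1 was at 0.68 when the cells were split at any Igf1 above 0), and 0 of the 12 lower genes did. The other settings, such as leaving out 4 cells of high summed FPKM or rescaling cells to 1 sum, kept both counts within 1.5 times, and counting any FPKM above 0 kept the order of gene numbers. FPKM without read numbers cannot show how much of a cell's missing genes is due to depth. No paired analysis was possible because the numbers shared by the ages name cells and pair nothing.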
